A study of Glycine soja with 14 samples.

Results

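ERD15, NRP-B, VPE2 and BIP2 belong to a soybean signalling route that links osmotic stress and stress of the endoplasmic reticulum (ER) to programmed cell death. They were followed in leaves of wild soybean, Glycine soja, during sodium bicarbonate treatment. The members were all soybean probe sets of the array whose only gene symbol in the public annotation was one of these 4 names. That gave 6 probe sets for 4 genes, among 6029 genes with a single symbol and 37593 soybean probe sets in all. ERD15 and VPE2 had 2 probe sets each, and NRP-B and BIP2 had 1 each.

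In soybean, ERD15 (early responsive to dehydration 15) is known as a factor that binds the NRP-B promoter and activates it. NRP-B is an asparagine-rich protein with a DCD (development and cell death) domain, and it passes the signal on to NAC transcription factors. These activate genes of vacuolar processing enzymes, cysteine proteases of the vacuole with caspase-1-like activity that carry out plant programmed cell death. BiP, the HSP70 chaperone of the ER lumen, folds new proteins and holds the route back in soybean.

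Seedlings of line G07256, 21 days old, stood in 1/4 strength Hoagland nutrient solution with 12 h of light a day. Treated seedlings were moved into 50 mM NaHCO3 at pH 8.5, and young leaves were harvested 0.5, 1, 3, 6, 12 and 24 h later, while the 0 h leaves had no bicarbonate. Each of the 7 times had 2 biological replicates, each 1 array of RNA from the pooled leaves of 3 plants, 14 arrays in all. With no untreated leaves at the later times, duration of treatment and clock hour cannot be told apart, except that 24 h fell at the clock hour of 0 h.

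Values below are intensities on a linear scale after each array was set to a common soybean median of 56.4. Background was the 95th percentile of the array's 23350 probe sets for a water mould and a nematode, 14.8 to 28.6 per array. The summed deposited intensity was 7413137 to 8230026 per array. Of 16 probe sets of light-harvesting, photosystem and Rubisco activase genes, 13 were above background on all arrays. Of 13 probe sets of seed genes, 7 were above it on no array and 1 (LEA-2) on all. The 1 nodule probe set, NOD33, was above it on all.

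VPE2, the protease gene, rose at 6 and 12 h, and ERD15, the activator, rose at 12 h. NRP-B rose at 3 h and BIP2, the chaperone gene, fell at 12 h, both by calls close to the threshold. The 12 h call of the ERD15 probe set Gma.7482.1.S1_at was close to it as well (limma adjusted p = 0.0430). Of all these calls only that of VPE2 at 12 h held in every alternative fit. Changes are log2 differences between group means of log2(intensity + 16) ± SE, from limma fitted to all arrays with n = 2 per time, and they understate the change of dim genes. A change was called at an adjusted p under 0.05 over all soybean probe sets. All changes against 0 h rest on the same 2 untreated arrays. In pooled leaf RNA, fewer cells of a type and less RNA per cell cannot be told apart.

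Of the 6 probe sets, 1 rose at 3 h (0.95% of all soybean probe sets rose, and 2.46% changed either way) and 2 rose at 6 h (4.16% rose, 9.99% changed). At 12 h 4 rose and 1 fell, where 11.4% of all rose, 13% fell and 24.4% changed. These calls came from 1 gene at 3 h, 1 at 6 h (VPE2) and 3 at 12 h (ERD15, VPE2 and BIP2). ERD15 and VPE2 were called on both of their probe sets, which are not separate genes. At 0.5, 1 and 24 h limma called 0 members, beside 2.54%, 0% and 5.21% of all probe sets. At an unadjusted p under 0.05 the counts of members at these 3 times were 0, 0 and 2 (both VPE2 probe sets at 24 h), and 7668, 3714 and 8618 of all 37593 probe sets reached it. Over the whole course limma's F test called 5 of the 6, with adjusted p = 0.0130 (VPE2) to 0.0437 (BIP2) and 0.0632 for the ERD15 probe set it missed, beside 30.4% of all.

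Intensities of different probe sets are not comparable as transcript amounts, so each member is read against itself. All 6 lay above background on all 14 arrays, and BIP2 came closest to it, at 1.87 times background on its dimmest array. Whether both arrays of a time lay on one side of both 0 h arrays is given for each member. This was common on the array: it held for 51% of all soybean probe sets at 0.5 h, 35.7% at 1 h, 45.8% at 3 h, 51.2% at 6 h, 58% at 12 h and 50.9% at 24 h.

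**Figure D1:**
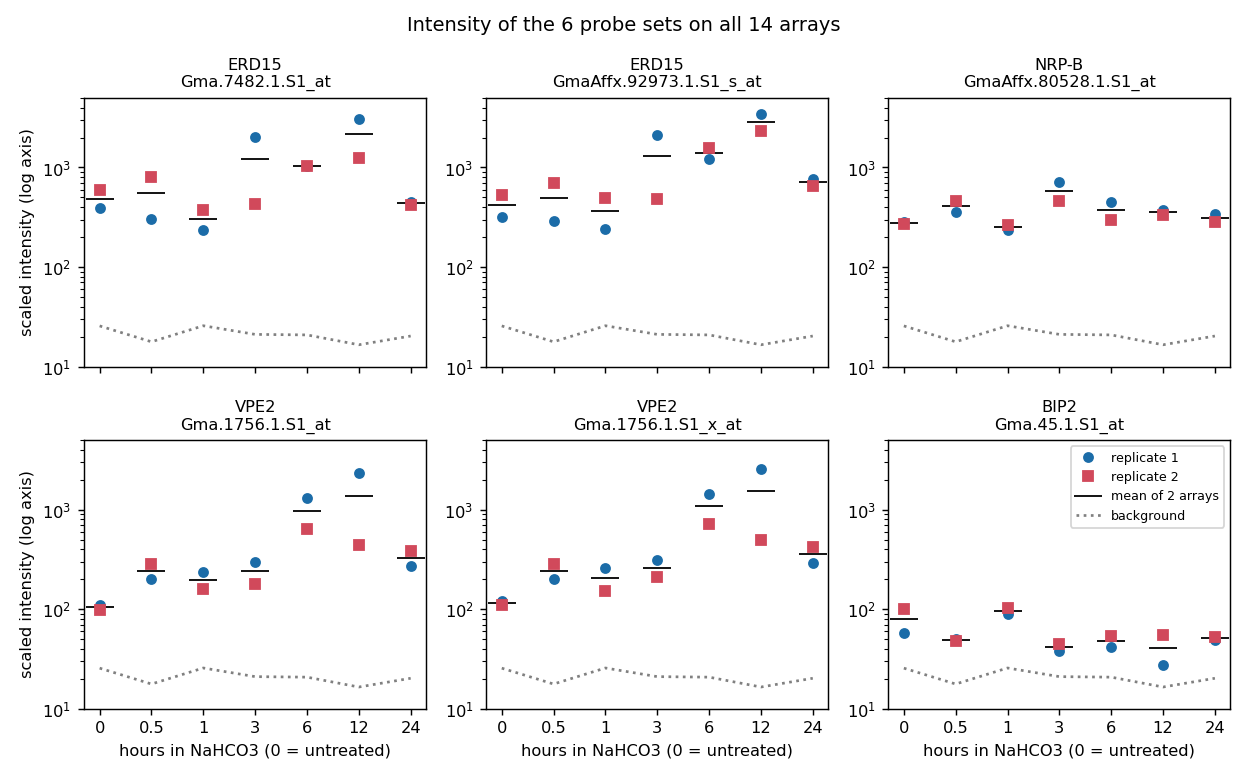
Scaled intensity (log axis) of each of the 6 probe sets against hours in NaHCO3, with 0 h untreated. Circles and squares are replicates 1 and 2, black dashes are means of 2 arrays, and the dotted line is the mean background. Both VPE2 probe sets are above the 0 h level at every later time, and BIP2 reaches at most 103.

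ERD15, which stands at the start of the route, was highest at 12 h on both probe sets. On GmaAffx.92973.1.S1_s_at, whose name marks it as shared by several transcripts, replicates read 318 and 526 at 0 h, 287 and 697 at 0.5 h, 242 and 490.1 at 1 h, and 2107 and 478 at 3 h. They read 1210.4 and 1556 at 6 h, 3448 and 2316 at 12 h, and 764 and 659 at 24 h. Both arrays of 6, 12 and 24 h were above both 0 h arrays, and the arrays of 0.5, 1 and 3 h overlapped them.

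On the other ERD15 probe set, Gma.7482.1.S1_at, the replicates read 388 and 587 at 0 h, 305 and 797 at 0.5 h, 234 and 374 at 1 h, and 2032 and 426 at 3 h. They read 1029.9 and 1039.9 at 6 h, 3061 and 1254 at 12 h, and 446 and 424 at 24 h. Here both arrays of 6 and 12 h were above both 0 h arrays, those of 1 h were below both, and those of 24 h lay between them. Over the 14 arrays the 2 probe sets had a Pearson r of 0.95, given as a description, with each array shared by both.

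At 12 h ERD15 rose by 2.74 ± 0.60 (6.68-fold, adjusted p = 0.00765) on the shared probe set and by 2.00 ± 0.65 (4.00-fold, adjusted p = 0.0430) on Gma.7482.1.S1_at. With 12 h replicate 1 left out the changes were 2.46 (adjusted p = 0.0572) and 1.36 (adjusted p = 0.262), and neither was called. The call on Gma.7482.1.S1_at also ended without any one array of 0, 1, 6 or 24 h, at adjusted p = 0.0527 to 0.168. At 6 h ERD15 lay 1.71 ± 0.60 (adjusted p = 0.102) and 1.09 ± 0.65 (adjusted p = 0.336) above 0 h. Leaving out either 3 h array gave a call at 6 h on the shared probe set (adjusted p = 0.0293), and on Gma.7482.1.S1_at it did not.

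At 3 h the 2 ERD15 arrays differed 4.41-fold on the shared probe set and 4.77-fold on Gma.7482.1.S1_at. The change there was 1.27 ± 0.60 (adjusted p = 0.263) and 0.95 ± 0.65 (adjusted p = 0.444), and on Gma.7482.1.S1_at it was -0.16 without 3 h replicate 1. By 24 h ERD15 was back below 12 h, by -1.97 ± 0.60 (3.92-fold, adjusted p = 0.0489) on the shared probe set and -2.13 ± 0.65 (4.38-fold, adjusted p = 0.0469) on the other, a step at which 15.1% of all probe sets were called. Those calls ended in 10 and 9 of the 14 fits without 1 array. Without 12 h replicate 1 the steps were -1.68 (adjusted p = 0.234) and -1.49 (adjusted p = 0.291). From the highest level down the shared probe set ran 12, 6, 3, 24, 0.5, 0 and 1 h, and only 12 and 6 h had neighbouring arrays that did not overlap.

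NRP-B, the gene that ERD15 activates in soybean, was highest at 3 h. Its probe set GmaAffx.80528.1.S1_at read 286 and 273 at 0 h, 354 and 461 at 0.5 h, 238 and 264 at 1 h, and 708 and 464 at 3 h. It read 451 and 297 at 6 h, 377 and 335 at 12 h, and 339 and 285 at 24 h. Both arrays of 0.5, 3, 6 and 12 h were above both 0 h arrays, those of 1 h were below both, and those of 24 h overlapped them.

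NRP-B rose at 3 h by 1.00 ± 0.23 (2.00-fold, adjusted p = 0.0496). This call ended in 13 of the 14 fits without 1 array (all but 3 h replicate 2), at adjusted p = 0.0527 to 0.216, and without 3 h replicate 1 the change was 0.70. Between 1 and 3 h NRP-B rose by 1.15 ± 0.23 (2.21-fold, adjusted p = 0.0340), a step at which 2.39% of all probe sets were called. That call ended without either array of 1 h or 24 h or without 3 h replicate 1, at adjusted p = 0.0539 to 0.159. At the other later times NRP-B lay -0.15 to 0.51 from 0 h (SE 0.23, adjusted p = 0.246 to 0.860). At 12 h, where ERD15 and VPE2 had their highest means, it lay 0.33 ± 0.23 above 0 h (adjusted p = 0.331). From the highest level down NRP-B ran 3, 0.5, 6, 12, 24, 0 and 1 h, and neighbours did not overlap between 3 and 0.5 h and between 0 and 1 h.

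NRP-A, the close relative that works beside NRP-B in soybean, also had its highest mean at 3 h and its next highest at 0.5 h. It read 676 and 512 at 0 h, 749 and 1104 at 0.5 h, 597 and 477 at 1 h, and 1350.4 and 977 at 3 h. It read 1042 and 688 at 6 h, 381 and 516 at 12 h, and 801 and 742 at 24 h. The change at 3 h was 0.95 ± 0.27 (adjusted p = 0.0819), not called, with both arrays above 0 h, and at 12 h it was -0.39 ± 0.27 (adjusted p = 0.316). Its other probe set lay 1.32 ± 0.32 above 0 h at 3 h (adjusted p = 0.0544). From 6 to 12 h the step on that probe set was called, at -1.25 ± 0.32 (adjusted p = 0.0323), where 9.51% of all probe sets were called. It was lost in 7 of 25 alternative fits, and on the brightest the step was -0.91 ± 0.27, not called (adjusted p = 0.0556).

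NAC6, a NAC factor known to act below the NRP proteins in soybean cell death, fell at 12 h. It read 39.98 and 68.6 at 12 h, against 95.3 and 155 at 0 h, a change of -1.00 ± 0.27 (adjusted p = 0.0193). The call ended without 12 h replicate 1, where the change was -0.71 (adjusted p = 0.149). Leaving out 0 h replicate 2 gave -0.69 (adjusted p = 0.132). Its highest level was at 3 h, 182 and 199.8, which lay 0.58 ± 0.27 above 0 h (adjusted p = 0.246). The lowest NAC6 mean and the highest VPE2 mean were both at 12 h. At 6 h, where VPE2 was also called, NAC6 lay -0.03 ± 0.27 from 0 h (adjusted p = 0.958). The step of NAC6 from 6 to 12 h was called, at -0.97 ± 0.27 (adjusted p = 0.0444), where 9.51% of all probe sets were called. It was lost in 14 of 25 alternative fits. A link between the courses of these genes was not tested.

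VPE2, the protease gene of the route, had its highest levels at 6 and 12 h. Gma.1756.1.S1_at read 112 and 98.5 at 0 h, 201 and 285 at 0.5 h, 237 and 159.6 at 1 h, and 299 and 181 at 3 h. It read 1305 and 636 at 6 h, 2334 and 442 at 12 h, and 274 and 382 at 24 h. All 12 treated arrays were above both 0 h arrays, as they were for 1.94% of all soybean probe sets.

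The second VPE2 probe set, Gma.1756.1.S1_x_at, read 1455 and 719.9 at 6 h and 2571 and 495 at 12 h, against 122 and 110.5 at 0 h. Its name marks probes that can also bind related transcripts. It shares its target number with the first, and the 2 had a Pearson r of 0.998 over the 14 arrays, so they are not separate measurements of the gene.

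VPE2 rose at 6 h by 2.94 ± 0.60 (7.68-fold, adjusted p = 0.0110) and 2.98 ± 0.60 (7.89-fold, adjusted p = 0.00996) on the first and second probe set. At 12 h it rose by 3.10 ± 0.60 (8.58-fold, adjusted p = 0.00382) and 3.12 ± 0.60 (8.71-fold, adjusted p = 0.00355). The 2 arrays of 12 h differed 5.28-fold and 5.20-fold, so the size of this rise rests on which is used. It was 1.92 and 1.95 without 12 h replicate 1 (adjusted p = 0.0160 and 0.0149), and 4.28 and 4.29 without 12 h replicate 2. The 12 h call held in all 25 alternative fits run for each probe set. The 6 h call ended without 6 h replicate 1, at 2.43 and 2.48 (adjusted p = 0.100 and 0.0933).

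Between 6 and 12 h VPE2 did not differ beyond its spread (0.16 ± 0.60, adjusted p = 0.906, first probe set). From 3 to 6 h the step was 1.90 ± 0.60 (adjusted p = 0.101) and 1.93 ± 0.60 (adjusted p = 0.0945), and it was called without either 12 h array. At 24 h VPE2 still lay 1.49 ± 0.60 (adjusted p = 0.167) and 1.48 ± 0.60 (adjusted p = 0.167) above 0 h, and without either 12 h array this was called (adjusted p = 0.0420 and 0.0425). At 0.5, 1 and 3 h the first probe set lay 1.08, 0.80 and 1.04 above 0 h (SE 0.60, adjusted p = 0.338 to 0.682). From the highest level down it ran 12, 6, 24, 0.5, 3, 1 and 0 h, and neighbours did not overlap between 6 and 24 h and between 1 and 0 h.

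BIP2, the ER chaperone gene, was the dimmest member and fell at 12 h. Gma.45.1.S1_at read 57.8 and 101.2 at 0 h, 50.6 and 47.7 at 0.5 h, 90.2 and 103 at 1 h, and 38.3 and 44.7 at 3 h. It read 41.4 and 53.7 at 6 h, 27.6 and 54.7 at 12 h, and 49.4 and 52.6 at 24 h. At 5 of the 6 later times, all but 1 h, both arrays were below both 0 h arrays, as they were for 9.09% of all soybean probe sets.

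The fall of BIP2 at 12 h was -0.74 ± 0.25 (1.67-fold, adjusted p = 0.0478). It was -0.41 without 0 h replicate 2 (adjusted p = 0.297), and leaving out 12 h replicate 1 gave -0.40 (adjusted p = 0.330). The call also ended without any one array of 0.5, 1, 3, 6 or 24 h. Of the fits without 1 array it held only in those without 0 h replicate 1 or 12 h replicate 2. Over all alternatives the call ended in 19 of 25 fits. At 0.5, 3, 6 and 24 h BIP2 lay -0.51, -0.70, -0.56 and -0.47 from 0 h (SE 0.25, adjusted p = 0.144 to 0.282). The step from 1 to 3 h was -0.97 ± 0.25 (adjusted p = 0.0637), and it was called without either array of 0 h or 12 h (adjusted p = 0.0386 and 0.0432). From the highest level down BIP2 ran 1, 0, 24, 0.5, 6, 3 and 12 h, and only 0 and 24 h had neighbouring arrays that did not overlap.

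**Figure D2:**
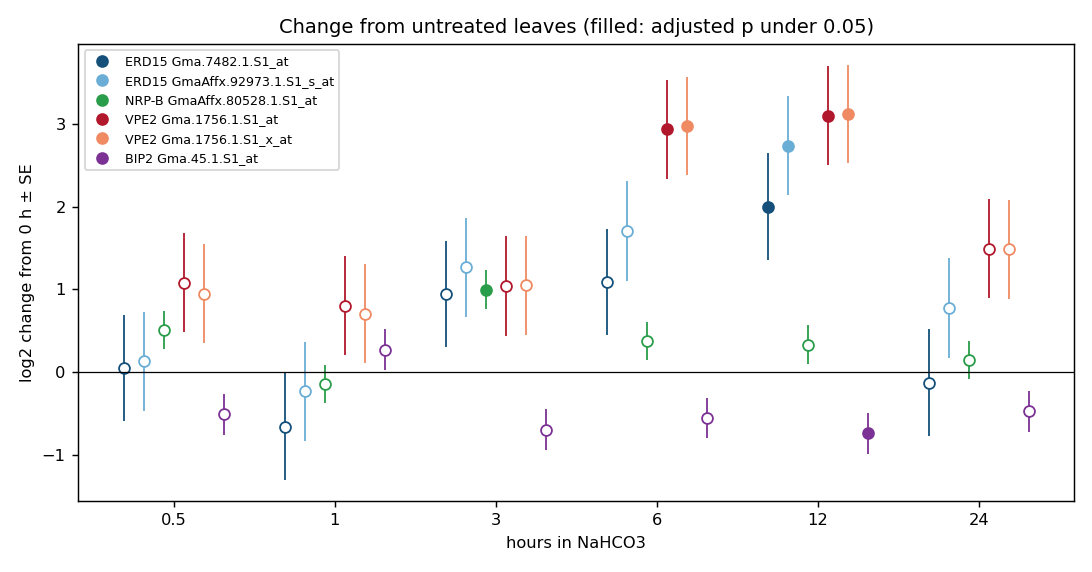
Log2 change from 0 h ± SE (vertical axis) for the 6 probe sets at each later time (horizontal axis), from limma with n = 2 arrays per time. Filled points passed an adjusted p under 0.05: NRP-B at 3 h, VPE2 at 6 and 12 h, and ERD15 and BIP2 at 12 h.

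The calls stand beside other shifts of the same arrays. The deposited intensity of 18S ribosomal RNA was 996 and 748 at 3 h, where NRP-B was called, and 1696 and 2274 at 6 h, where VPE2 was called, against 455 and 405 at 0 h. At 12 h it was 379.8 and 560.5. At the times with 0 members called it was 63.1 and 25.6 (0.5 h), 136 and 126 (1 h) and 393 and 467 (24 h). The 16 leaf marker probe sets summed to 33464 and 40605 at 12 h, against 68540 to 69254 at 0 h, but not all of them fell. The brightest light-harvesting probe set (CAB3) averaged 6929 at 12 h, against 12260 at 0 h. The Rubisco activase gene RCAALPHA averaged 2592, against 6248. The brightest probe set of the photosystem gene PSAD averaged 8689 at 12 h, against 8673 at 0 h, and its next brightest 3847, against 3698. The nodule probe set read 121 and 333 at 12 h, against 50.2 to 70.6 at 0 h, and the seed list summed to 516 to 545 at 12 h, against 526 to 801 at 0 h. Most of the seed sum was LEA-2, which averaged 442 at 12 h and 543 at 0 h. The bacterial spike-in bioB read 280.0 on 12 h replicate 1 and 474 on 12 h replicate 2, and background was 14.8 and 18.3. Its lowest readings, 213 and 202, were at 0.5 h. ERD15 and VPE2 were higher, and BIP2 lower, on 12 h replicate 1. The part of these shifts in the members' changes was not tested.

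Replicate arrays differed more for ERD15 and VPE2 than for most genes. The SD between the 2 arrays of a time, pooled over the 7 times on the log2 scale, was 0.81 and 0.75 for the ERD15 probe sets and 0.75 and 0.74 for those of VPE2. It was 0.26 for NRP-B and 0.28 for BIP2, against a median of 0.19 over soybean probe sets. ERD15 and VPE2 lay at percentiles 99.0 to 99.2 of this SD, NRP-B at 74.3 and BIP2 at 79.1.

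The members' replicates also differed together at some times. At 0.5 h all 5 probe sets of ERD15, NRP-B and VPE2 were higher on replicate 2, and at 3 and 12 h all 5 were higher on replicate 1. BIP2 was lower on that same replicate at each of these 3 times. At 0, 1, 6 and 24 h the 5 were split. The replicates are different pools of plants, and this pattern was picked after the values were seen.

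**Figure D3:**
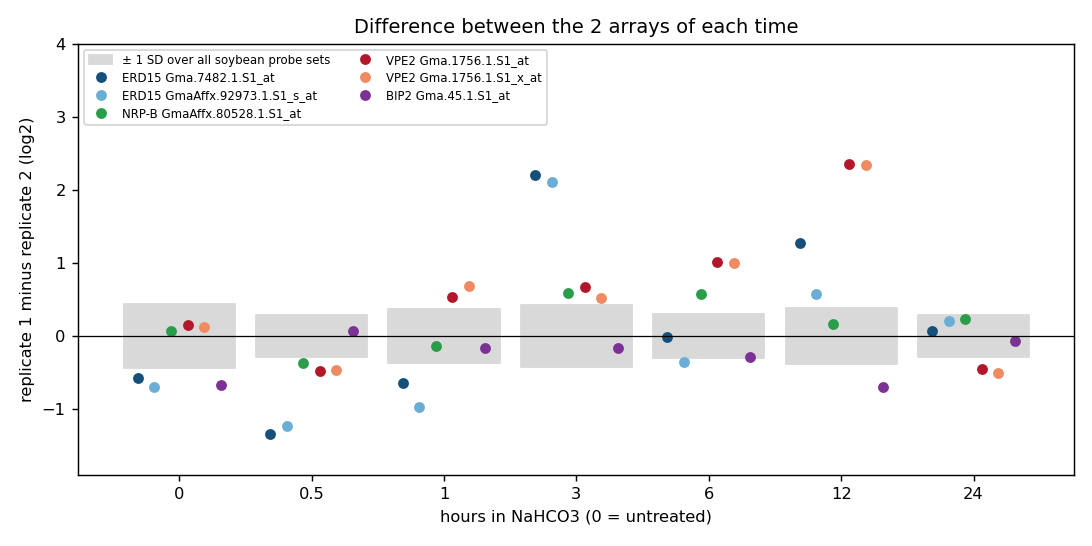
Replicate 1 minus replicate 2 (log2, vertical axis) of the 6 probe sets at each time (horizontal axis), with grey bars for ± 1 SD of the same difference over all soybean probe sets. At 3 h ERD15 differed by 2.21 and 2.10, and at 12 h VPE2 differed by 2.36 and 2.34, outside grey bars of 0.42 and 0.39.

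Other genes of the route came from a list of symbols for NAC factors, NRP, vacuolar processing enzyme and BiP genes, ER folding factors, bZIP factors, cysteine proteases and a senescence gene. The annotation held 14 of these besides the members, each read on its brightest probe set. For NRP-A, BIP4, PDIL-2, BZIP28, BZIP38 and SARK the name of that probe set marks it as shared by several transcripts. Of the 14, 0 rose and 3 fell at 12 h (NAC6, BZIP38 and SARK), where 11.7% of all 6029 genes with a symbol rose and 16.5% fell. At 6 h 0 rose and 1 (SARK) fell, where 4.96% of all genes with a symbol rose and 7.17% fell. At 24 h 0 rose and 1 (SARK) fell, where 2.42% rose and 3.73% fell. At 0.5, 1 and 3 h limma called 0 of the 14, and among all genes with a symbol 0.43%, 0% and 0.41% rose and 2.04%, 0% and 1.49% fell. Counts of 0 or 1 among 14 are near these shares. The list's median change at 12 h was -0.41, beside -0.05 over all genes with a symbol, and at 6 h it was -0.09, beside -0.03.

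The relatives of VPE2 and BIP2 were not called against 0 h at any time. VPE, another vacuolar processing enzyme gene, read 18.4 and 11.7 at 12 h, against 41.0 and 27.7 at 0 h. It was above background on 1 of the 2 arrays at 12 h and on 12 of 14 arrays in all, and its fitted change of -0.69 ± 0.28 (adjusted p = 0.0987) was not called. BIP4, another BiP gene, read 155 and 304 at 12 h, against 283 and 316 at 0 h, a change of -0.43 ± 0.24 (adjusted p = 0.218), and its other probe set lay 0.54 ± 0.28 above 0 h (adjusted p = 0.189). The protein disulfide isomerase genes PDIL-2, PDIM-1 and PDIQ-1A, which form disulfide bonds in the ER, were not called against 0 h on their brightest probe sets, nor were BZIP28, BZIP37, CP3, CYSP1, CYSP2 and NRP-A. CP3, though counted among the 14, was above background on 0 of the 14 arrays, so its fitted changes are not read.

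SARK, a receptor-like kinase gene of leaf senescence, had 4 probe sets that did not run alike. Gma.10921.1.S1_s_at and Gma.10921.1.A1_at share a target number, so their falls may not be separate measurements. On the brightest, Gma.10921.1.S1_s_at, replicates read 190.4 and 133 at 0 h, 115 and 145 at 0.5 h, 114 and 116 at 1 h, and 91.4 and 117 at 3 h. They read 89.1 and 92.6 at 6 h, 72.5 and 62.0 at 12 h, and 58.8 and 64.9 at 24 h. This probe set fell by 0.71 at 6 h (SE 0.18, adjusted p = 0.0307), by 1.08 at 12 h (SE 0.18, adjusted p = 0.00175) and by 1.17 at 24 h (SE 0.18, adjusted p = 0.0110). Its 12 h call held in every alternative tried. The 6 h call ended without either 6 h array or 0 h replicate 1 (adjusted p = 0.120 to 0.167) and the 24 h call without either 24 h array (adjusted p = 0.0752 and 0.0836). The other 3 probe sets were not called at 6 h (adjusted p = 0.0812 to 0.570). Gma.10921.1.A1_at fell at 12 h by 0.95 (adjusted p = 0.0157) and at 24 h by 1.00 (adjusted p = 0.0407), and GmaAffx.19116.1.S1_at fell by 0.67 (adjusted p = 0.0457) and 1.03 (adjusted p = 0.0282). These calls ended in 2, 10, 8 and 4 of the 14 fits without 1 array. GmaAffx.25511.1.S1_at was called at no time and lay -0.08 from 0 h at 12 h (adjusted p = 0.843) and -0.21 at 24 h (adjusted p = 0.671).

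BZIP28, a bZIP transcription factor gene, read 245 and 259 at 6 h, against 128 and 155 at 0 h. The change of 0.77 ± 0.23 was not called (adjusted p = 0.0568). From 3 to 6 h BZIP28 rose by 1.02 ± 0.23 (adjusted p = 0.0284), a step at which 4.97% of all probe sets were called. That call was lost in 6 of 26 alternative fits, and on the other BZIP28 probe set the step was 0.63 ± 0.18, not called (adjusted p = 0.0714). Its other probe set, Gma.1489.1.S1_at, fell at 24 h by 0.72 (SE 0.18, adjusted p = 0.0443), a call that ended without either array of 0.5, 1, 6 or 24 h or 0 h replicate 2 (adjusted p = 0.0558 to 0.197). The brightest lay -0.49 ± 0.23 from 0 h at that time (adjusted p = 0.234). The step from 12 to 24 h was called on Gma.1489.1.S1_at, at -0.73 ± 0.18 (adjusted p = 0.0180), and lost in 5 of 25 alternative fits. On the brightest it was -0.58 ± 0.23, not called (adjusted p = 0.117). BZIP38, another bZIP gene, fell at 12 h by 0.71 (SE 0.23, adjusted p = 0.0473). That call ended in 20 of the 25 alternative fits. These include 12 of the 14 fits without 1 array (all but those of 3 h), quantile normalization (adjusted p = 0.0722) and no scaling (adjusted p = 0.0862). Its other probe set, GmaAffx.93050.1.S1_at, lay -0.53 ± 0.20 from 0 h at 12 h and was not called (adjusted p = 0.0818).

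**Figure D4:**
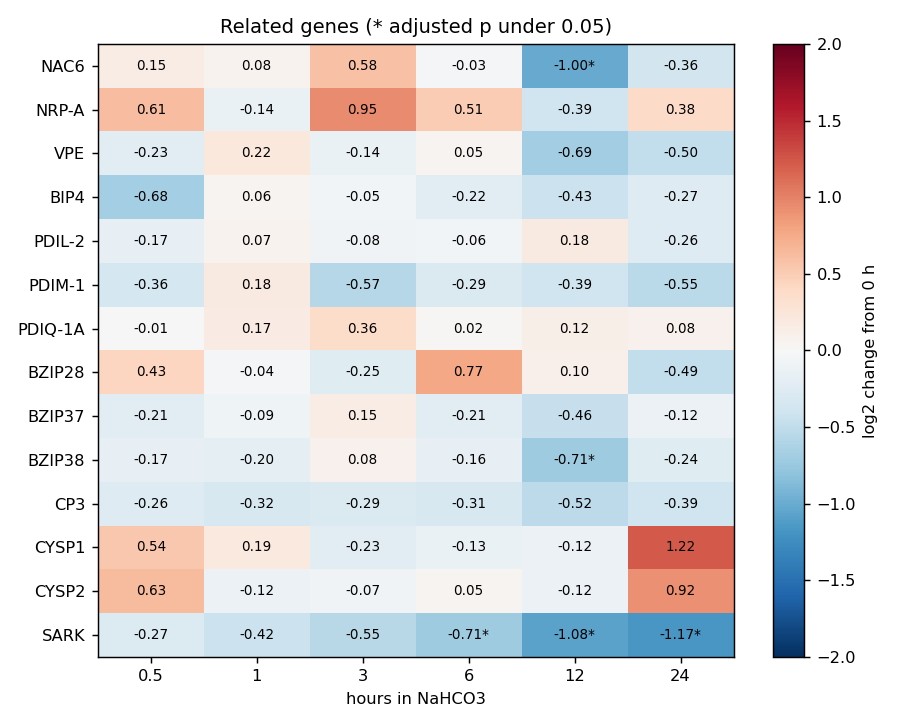
Log2 change from 0 h (colour and printed number) of the 14 related genes, 1 per row, at each later time, from limma with n = 2 arrays per time. Stars mark an adjusted p under 0.05, which NAC6, BZIP38 and SARK reached at 12 h and SARK also at 6 and 24 h.

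For each member's brightest probe set the most similar courses were found by the Pearson r of 7 group means on the log2 scale. The candidates were 631 or 632 probe sets with a proper gene name, a range of means of at least 1 log2 and a level above background at some time. These are descriptions over 7 points, with no test. Over the 14 arrays r was lower for every gene named, from 0.73 (CYP93A1 with NRP-B) to 0.94 (WRKY27 with NRP-B). ERD15 ran closest to SRC1 (r = 0.99), CIF1 (r = 0.98) and COR1 (r = 0.96), all highest at 12 h. SRC1 averaged 6011 at 12 h, against 1989 at 0 h. VPE2 ran closest to MYB127 (r = 0.98), highest at 12 h, and to MYB93 (r = 0.96) and BZIP110 (r = 0.95), both highest at 6 h.

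NRP-B ran closest to CYP93A1 (r = 0.98), WRKY27 (r = 0.98) and a DREB1-like gene (r = 0.94), all highest at 3 h. Their 3 h means were 43.6, 59.3 and 34.5, against 11.3, 10.1 and 6.83 at 0 h, which are below background. BIP2 ran closest to CHI1B1 (r = 0.96), PIP1-7 (r = 0.95) and ACCB-2 (r = 0.90), all highest at 1 h. CHI1B1 averaged 66.6 at 1 h, against 57.2 at 0 h.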

How the data were processed

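Leaf RNA was hybridised as biotin-labelled targets to 1-colour Affymetrix arrays, per the labels' protocols. The deposited intensity values are linear, 1 per probe set and array, from 0.92 to 12812.33. How the authors summarised and scaled these intensity values, and with which software, is not given in the sources used here. Of 61170 probe sets, 227 controls and the 23350 of other organisms were not tested. After scaling to the common soybean median, 7 group means were fitted to log2(value + 16) with limma 3.58.1 in R 4.3.3 (lmFit and eBayes, 7 residual and 4.24 prior degrees of freedom). Tests were two-sided. Benjamini-Hochberg adjustment ran over the 37593 soybean probe sets within each contrast, and the F test covered the 6 contrasts against 0 h. The fit was tested on simulated data. The number of arrays limits the precision: the median SE of a change was 0.19 log2, and the SE pools the spread of all times.

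Symbols are those of the array's public annotation and may be outdated. None of the 4 members matched the Glycine soja reference gene table, so neither positions nor sequences are given. All members and the 14 list genes were named. The rule gave values for SARK, NAC6, BZIP28 and NRP-A, those of the list with the lowest F test p. BZIP38, VPE, BIP4, CYSP1, CYSP2 and PDIL-2 were added after values were seen. Members, lists and tests were chosen with earlier results of these data known. Alternatives were quantile normalization, no scaling, log2(value + 1), log2(value + 64), a filter keeping 30583 probe sets above background on 2 or more arrays, and the replicate number as a block. Others were only the groups compared, trend and robust eBayes, all probe sets of the array, an adjusted p under 0.01, and each array left out in turn. Leaving out both 0.5 h or both 12 h arrays was chosen after seeing the data.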

Additional observations from a re-analysis of the deposited data

Results flagged for a closer look

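In 2 members the change against 0 h differed between neighbouring times by a test of that difference. NRP-B stood 1.15 higher at 3 h than at 1 h, with both 3 h arrays above both 1 h arrays. ERD15 stood -2.13 and -1.97 lower at 24 h than at 12 h on its 2 probe sets, with both 24 h arrays below both 12 h arrays. Both times share the 0 h arrays, which cancel in these differences.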

How the results depend on the processing

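With 2 arrays per time, calls near the threshold moved with small changes of the fit. VPE2 at 12 h was called on both probe sets in every alternative. The 1 member call at 3 h became 0 with log2(value + 1), the replicate block, all probe sets of the array, a threshold of 0.01, only the groups compared, and without both 0.5 h or both 12 h arrays. The 2 calls at 6 h became 1 at 0.01, and the 5 at 12 h became 3 with log2(value + 1), log2(value + 64) and at 0.01. With the replicate block the 5 at 12 h became 4, and other falls from 5 to 4 are not listed. At 24 h and from 3 to 6 h, 2 were called instead of 0 without both 12 h arrays. From 1 to 3 h the 1 call became 0 with log2(value + 1), at 0.01 and with only the groups compared, and 2 with the replicate block and without both 12 h arrays. From 12 to 24 h the 2 calls became 1 without scaling and 0 with log2(value + 1), log2(value + 64), the replicate block, trend and robust eBayes, all probe sets and at 0.01. The 5 calls of the F test became 2 with log2(value + 1) and 0 at 0.01. Leaving out 1 array gave 0 to 1 calls at 3 h, 0 to 3 at 6 h, 2 to 5 at 12 h, 0 to 2 at 24 h, 0 to 3 from 1 to 3 h, 0 to 2 from 3 to 6 h, 0 to 3 from 12 to 24 h and 3 to 5 by the F test. Fewer arrays or a stricter threshold lie in the construction of some of these settings, and otherwise the cause was not tested. The labels do not say whether a replicate number is shared across times. Replicate differences of different times correlated at -0.22 to 0.23 over probe sets (21 pairs), which cannot exclude a pairing that touches only some probe sets. With the replicate block NRP-B at 3 h (adjusted p = 0.0576) and ERD15 at 12 h on Gma.7482.1.S1_at (adjusted p = 0.0558) were not called.

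The log2 changes recomputed were all those of members and, for related genes, only changes that had been called. In these refits 1912 kept direction and call, 281 lost a call and 25 gained one. The 1912 include changes that were not called to begin with and so had no call to lose. They are therefore no measure of how stable the calls are. Signs turned in 26, each time with 1 array left out and for a change that was not called. Over the arrays left out, ERD15 on Gma.7482.1.S1_at ran from -0.62 to 0.72 at 0.5 h, -0.16 to 2.05 at 3 h, -0.42 to 0.16 at 24 h and -0.96 to 1.25 from 3 to 6 h. ERD15 on the shared probe set ran from -0.49 to 0.75 at 0.5 h, -0.72 to 0.25 at 1 h, -0.98 to 0.25 from 0.5 to 1 h and -0.61 to 1.49 from 3 to 6 h. NRP-B ran from -0.33 to 0.25 from 6 to 12 h. VPE2 ran from -0.10 to 0.58 (first probe set) and -0.0045 to 0.68 (second) from 1 to 3 h, and from -1.02 to 1.34 and -1.03 to 1.31 from 6 to 12 h. The second VPE2 probe set ran from -0.59 to 0.10 from 0.5 to 1 h. BIP2 ran from -0.063 to 0.60 at 1 h, -0.00031 to 0.28 from 3 to 6 h, -0.54 to 0.16 from 6 to 12 h and -0.079 to 0.62 from 12 to 24 h.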

Other observations

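CYSP1 and CYSP2, genes of cysteine proteinases, were dim in untreated leaves and above background on some later arrays. At 0.5 h CYSP1 read 42.3 and 23.0, both above background, and CYSP2 read 35.1 and 13.7, 1 of the 2 above it. CYSP1 was also above it on 1 h replicate 2, at 33.5, and not on 1 h replicate 1, at 12.5. At 24 h both genes were above it on both arrays. CYSP1 read 36.4 and 95.6 at 24 h, against 12.4 and 16.3 at 12 h and 15.1 and 18.6 at 0 h. CYSP2 read 24.7 and 39.8 at 24 h, against 8.77 and 5.83 at 12 h and 8.86 and 9.55 at 0 h. The 12 h and 0 h values were not above background. At 24 h CYSP1 was at least 2.35-fold higher than at 12 h (limma adjusted p = 0.0281) and CYSP2 at least 1.47-fold higher (limma adjusted p = 0.0148). Both calls ended without either 12 h array or 24 h replicate 2 (adjusted p = 0.0515 to 0.230). Against 0 h the 24 h change was not called for CYSP1 (limma adjusted p = 0.0730) or CYSP2 (limma adjusted p = 0.0529).

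PDIL-2, a protein disulfide isomerase gene, had 4 probe sets that did not run alike. At 0.5 h GmaAffx.91719.1.S1_at fell by 0.86 (SE 0.17, limma adjusted p = 0.0268) and Gma.2350.1.S1_at fell by 0.77 (SE 0.16, limma adjusted p = 0.0340). GmaAffx.91719.1.S1_at also fell at 12 h by 0.61 (limma adjusted p = 0.0243) and at 24 h by 0.76 (limma adjusted p = 0.0319). Its 12 h call ended without 0 h replicate 2 or 12 h replicate 2, and its 24 h call without 0 h replicate 2 or either 24 h array (adjusted p = 0.109 to 0.181 over both). The brightest probe set of the gene lay -0.17 from 0 h at 0.5 h (limma adjusted p = 0.556). Without 0.5 h replicate 2 neither fall at 0.5 h was called (adjusted p = 0.232 and 0.250). The first 0.5 h call also ended without 0.5 h replicate 1 or 0 h replicate 2, and the second without 0.5 h replicate 1 or any one array of 0, 6 or 24 h (adjusted p = 0.0505 to 0.124).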
